A study of Mus musculus with 24 samples.

Results

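Lung and small intestine of embryos carrying an epithelial deletion of the ciliary gene Ift88 were compared with each other, gene by gene. The comparison used the 4 Ift88 mutant lung libraries and the 4 Ift88 mutant intestine libraries, chosen by their labels, 8 of the 24 libraries of the series. Each library holds bulk RNA sequencing of total RNA from an organ dissected from an E11.5 mouse embryo. The genotype of both organs was ShhCre Ift88-/lox, and the labels describe the group as cilia-disrupted. ShhCre drives Cre recombinase under Shh, a gene of the endodermal epithelium in both organs. Recombination therefore removes the remaining Ift88 allele in the epithelium, while cells outside the Shh lineage, the mesenchyme included, keep 1 intact and 1 null allele. Controls were ShhCre Cenpj+/lox and the other mutant group was ShhCre Cenpj-/lox, a deletion of the centriole gene Cenpj, with 4 libraries of each organ. All 24 libraries carried ShhCre. The labels do not say which organs came from the same embryo or whether embryos were pooled, so p-values measure the spread between these libraries.

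Lung and intestine both arise from the endodermal gut tube wrapped in splanchnic mesoderm. The lung bud is marked by the transcription factor Nkx2-1 in its epithelium and by Tbx4, Tbx5 and Wnt2 in its mesenchyme. The intestinal epithelium depends on Cdx2 and Hnf4a, and the gut wall expresses Nkx2-3, Barx1 and Hand1. Epithelial Shh signals to the mesenchyme of both organs, and the cells that receive it read it through the primary cilium, whose assembly needs intraflagellar transport proteins such as Ift88. At this stage the lung is branching from its first buds and neural crest cells are colonising the gut wall.

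Read counts recovered from the normalized values totalled 105 to 121 M per library over the 8 libraries, and 23548 to 25909 genes had at least 1 read. The reads did not look independent. With the lowest read numbers left out, genes of up to 200 reads most often carried 14 to 28 reads in a library. Dividing the totals by that number gave 3.76 to 8.13 M. Replicates of the same organ correlated at 0.923 to 0.935 across genes (Pearson's r of log2 values), and libraries of different organs at 0.902 to 0.920. Ribosomal RNA lay at 332 to 638 reads per M reads (RPM) in the 4 lung libraries and at 373 to 1287 in the 4 intestine libraries. What part this had in the organ contrast was not tested. None of the 8 libraries had normalized counts of the Y-linked gene Ddx3y. Ift88 was read at 1839, 2442, 1883 and 1730.4 normalized counts in the 4 lung libraries and at 2034, 2155, 2152 and 1581 in the 4 intestine libraries. The values overlapped, and the log2 difference of -0.01 (SE 0.14, adjusted p = 0.988) did not pass the test. In controls, Ift88 averaged 2637 ± 309 in lung and 2572 ± 202 in intestine (SD, n = 4 each). Cenpj was 3326 ± 293 in Ift88 mutant lung and 3137 ± 334 in Ift88 mutant intestine (SD, n = 4 each), also without a difference that passed.

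Of 30824 genes tested, 3427 (11.1%) differed between the 2 organs at an adjusted p under 0.05 (limma on log2 of the normalized count + 1, Benjamini-Hochberg over all genes tested). Of the called genes, 1279 (4.15% of all tested) were higher in lung and 2148 (6.97%) were higher in intestine. Requiring also a log2 fold change of 1 or more left 1941 genes (6.3%), with 596 higher in lung and 1345 higher in intestine. The median log2 fold change over all tested genes was -0.0198, with positive values meaning higher in lung throughout. In the authors' deposited table for this comparison, 3069 genes had a false discovery rate under 0.05, of which 2641 were also among the 3427 and had the same direction. Of the 12868 tested genes with a mean of 500 normalized counts or more in at least 1 organ, 2617 passed, a larger share than over all tested genes. Each gene list below is read against the shares over all tested genes, and not against this larger one.

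**Figure D1:**
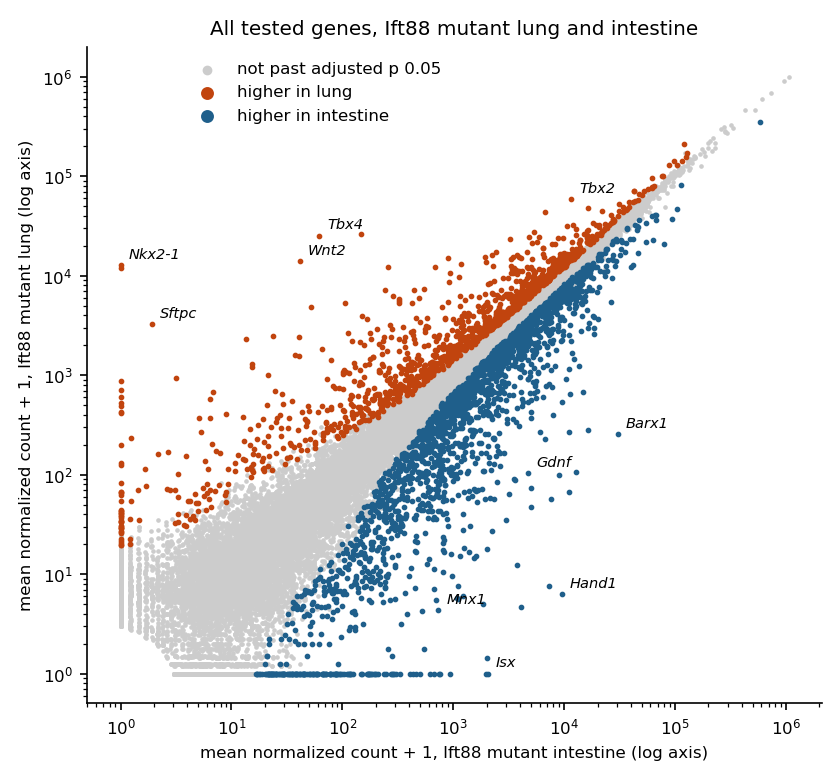
Mean normalized count + 1 of every tested gene in the 4 Ift88 mutant intestine libraries (horizontal, log axis) and the 4 Ift88 mutant lung libraries (vertical, log axis); coloured points passed an adjusted p of 0.05. The lung transcription factor gene Nkx2-1 and the surfactant gene Sftpc lie at the left edge with almost no reads in intestine, and a row of intestinal genes including Isx lies along the bottom with none in lung.

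Promoters of genes that set the 2 epithelia apart were read for known motifs. The 250 bases before the RefSeq transcription start are printed for a lung surfactant gene, for the regulators Nkx2-1 and Cdx2, and for the intestinal fatty-acid binding protein gene Fabp1 (build GRCm38.p6, written 5′ to 3′ on the gene's strand). Capitals mark matches, on either strand, to short forms of known motifs. These were CAAGTG for NKX2-1, TTTATG for CDX, TGTTTAC for FOXA, GTTAAT for HNF1, CAAAGTCCA for HNF4 and TATAAA for the TATA box, each with its reverse complement and chosen with the results known.
Sftpa1: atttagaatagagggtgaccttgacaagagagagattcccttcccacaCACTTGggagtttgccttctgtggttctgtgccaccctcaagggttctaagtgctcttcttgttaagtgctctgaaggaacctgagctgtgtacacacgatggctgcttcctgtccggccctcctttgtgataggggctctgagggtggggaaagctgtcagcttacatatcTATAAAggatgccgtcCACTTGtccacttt
Nkx2-1: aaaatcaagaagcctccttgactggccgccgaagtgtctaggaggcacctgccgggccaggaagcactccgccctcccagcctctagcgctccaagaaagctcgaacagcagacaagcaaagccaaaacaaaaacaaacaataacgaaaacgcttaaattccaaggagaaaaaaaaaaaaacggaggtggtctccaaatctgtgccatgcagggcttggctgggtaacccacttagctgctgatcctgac
Cdx2: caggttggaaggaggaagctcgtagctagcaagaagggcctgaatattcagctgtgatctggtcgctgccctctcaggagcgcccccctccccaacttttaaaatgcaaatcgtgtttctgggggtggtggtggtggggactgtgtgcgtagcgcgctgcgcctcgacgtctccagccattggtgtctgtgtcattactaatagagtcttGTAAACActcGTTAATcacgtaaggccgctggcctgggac
Fabp1: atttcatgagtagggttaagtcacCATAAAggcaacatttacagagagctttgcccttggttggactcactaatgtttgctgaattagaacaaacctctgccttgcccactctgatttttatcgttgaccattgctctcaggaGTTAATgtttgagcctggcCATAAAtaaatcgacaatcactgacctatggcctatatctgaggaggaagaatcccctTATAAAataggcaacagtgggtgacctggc
The Sftpa1 window (chr14:41131538-41131787, forward strand) held 2 matches to the NKX2-1 motif and 1 TATA box. The Fabp1 window (chr6:71199629-71199878, forward strand) held 2 matches to the CDX motif, 1 to HNF1 and 1 TATA box. The Cdx2 window (chr5:147307250-147307499, reverse strand) held 1 match to FOXA and 1 to HNF1, and the Nkx2-1 window (chr12:56536909-56537158, reverse strand) held no match. Windows of other genes were searched but are not printed. Those of Wnt2 and Fabp2 held no match, that of Isx held 1 match to NKX2-1 and none to CDX, and the 2 Hnf4a windows held 0 and 2 matches to HNF1. Over the promoters of 13429 tested genes with a RefSeq entry, 6.79% held the CDX motif. That share was 8.98% among the 824 promoters of genes at least 2-fold higher in intestine and 6.9% among the 348 of genes at least 2-fold higher in lung. The NKX2-1 motif stood in 9.97% of all these promoters, in 12.9% of the lung group and in 10.2% of the intestine group. The HNF1 motif stood in 4.59%, 6.9% and 7.28% in the same order, the FOXA motif in 2.26%, 2.01% and 3.64%, and the TATA box in 8.19%, 12.4% and 11.53%. The longer HNF4 motif was in 0.343% of all these promoters, 0.287% of the lung group and 0.364% of the intestine group. These shares describe letters in a short window and no test was made of them.

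The lung epithelium was marked first by Nkx2-1, the transcription factor that specifies the respiratory endoderm (chr12:56531958-56536908, reverse strand, GRCm38). Its normalized counts were 14839, 12260.5, 8396 and 15688 in lung and 0 in all 4 intestine libraries. A floor was set at 3 times the number of reads that low genes most often carried in each library, the lowest read numbers left out. It averaged 53.4 normalized counts in intestine and 59.3 in lung. Against this floor, lung was at least 239.8-fold higher (adjusted p = 5.15e-12). The non-coding gene AC154734.1, which lies just downstream of Nkx2-1 on the same strand (chr12:56488321-56529427), had the same pattern, with 12756, 14439, 9350.2 and 11565 in lung and 0 in every intestine library. Its shorter overlapping neighbour AC154734.2 averaged 939 ± 141 in lung and 2.15 ± 4.3 in intestine (SD, n = 4 each). The labels do not state strand-specific counting, and reads of overlapping genes at this locus may be shared.

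Surfactant protein genes were transcribed in these lungs well before birth. Sftpc, the classical marker of the distal lung epithelium, read 3259, 3253, 3425 and 3007 in lung and 0, 0, 0 and 3.7 in intestine. Sftpb, whose product organises the surfactant film, averaged 1198 ± 269.6 in lung and 14.2 ± 21.7 in intestine, and the collectin gene Sftpa1 averaged 574 ± 118 and 5.35 ± 10.7 (SD, n = 4 each). All of these passed the test, with adjusted p = 2.63e-09 for Sftpc, 2.33e-05 for Sftpb and 2.49e-05 for Sftpa1. Sftpd was near its detection limit, at 21.3 and 3.4 normalized counts, and did not pass.

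Among 23 tested lung epithelial genes, 13 were higher in lung, 4 were higher in intestine and 6 did not pass; the median log2 fold change was 2.03. The FGF-responsive transcription factor gene Etv5 read 26405, 18025, 17598 and 31723 in lung and 2910.1, 2339, 2387 and 5323 in intestine, a log2 fold change of 2.90 (SE 0.23, adjusted p = 7.90e-08). The lowest lung value lay well above the highest intestine value. The Iroquois genes formed a graded set, with log2 fold changes of 5.72 for Irx1, 4.22 for Irx2 and 2.68 for Irx3. Wnt7b, the main epithelial Wnt ligand of the lung, read 12958, 9729, 8644 and 17761 in lung and 280, 181, 363 and 201 in intestine (5.57, adjusted p = 3.99e-11). The tight junction gene Cldn18 (3.84) and the epithelial transcription factor gene Elf5 (3.86) were also higher in lung. Sox9, a marker of branching tips that is also used in the gut, differed less, at 0.96 (adjusted p = 0.00553). The 4 members that were higher in intestine were Cpm (-1.74), Foxp1 (-0.93), Id2 (-0.92) and Foxp2 (-0.45); the Foxp factors and Id2 are also expressed outside the lung.

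**Figure D2:**
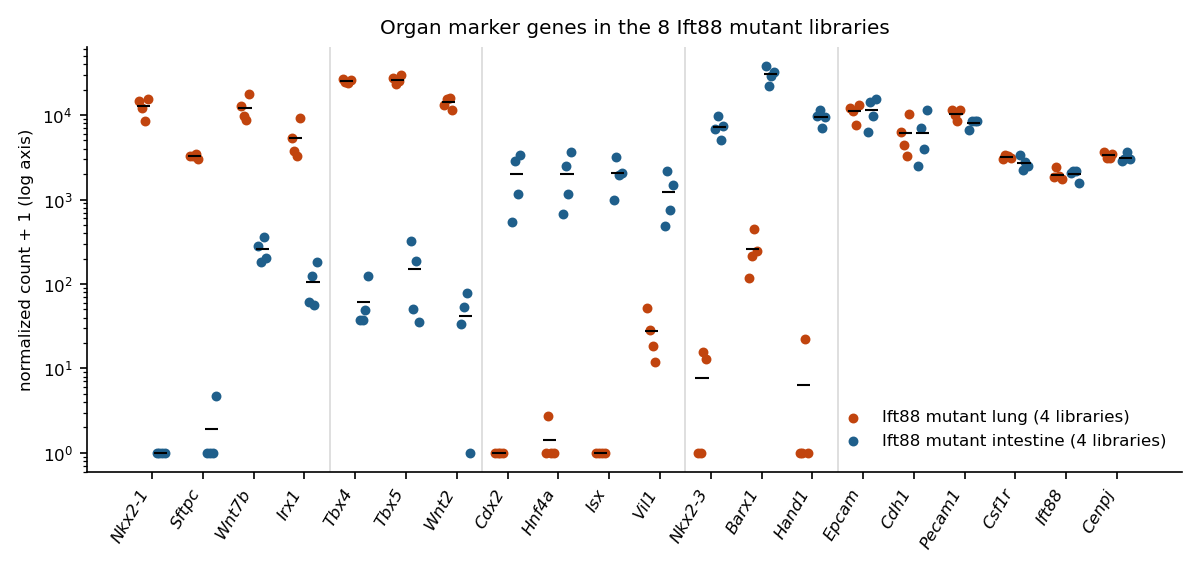
Normalized count + 1 (vertical, log axis) of 20 genes in each of the 8 Ift88 mutant libraries; points are libraries and black bars the mean of 4. The plotted lung epithelial, lung mesenchymal, intestinal epithelial and gut mesenchymal genes (separated by grey lines) do not overlap between organs. Epcam, Cdh1, Pecam1, Csf1r, Ift88 and Cenpj overlap. The plotted genes were picked with the results known, and their lists also held members that did not pass or went the other way.

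The intestinal epithelium was marked by a group of transcription factor genes with few or no reads in lung. Cdx2, the master regulator of intestinal identity, read 534, 2882, 1168 and 3345 in intestine and 0 in all 4 lung libraries, at least 33.4-fold higher (adjusted p = 5.82e-08). Isx, an intestinal homeobox gene, read 978, 3178, 1929 and 2065 in intestine and 0 in lung, at least 34.3-fold higher (adjusted p = 1.10e-08). Hnf4a, the nuclear receptor that drives enterocyte genes, read 666, 2508, 1172 and 3655 in intestine and 0, 1.7, 0 and 0 in lung (adjusted p = 5.55e-08). Its relative Hnf4g had the same direction, with 415 normalized counts on average in intestine against 10.4 in lung. Pdx1, the factor of duodenum and pancreas, and Onecut1 and Onecut3 were at 0 in lung and at 620.4 ± 231, 195 ± 75.6 and 736 ± 459 in intestine (SD, n = 4 each). Cdx1, a relative of Cdx2 and another intestinal marker, averaged 7.58 normalized counts in intestine and 0.2 in lung, and did not pass.

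Of 24 such transcription factor genes, 11 were higher in intestine, 2 were higher in lung and 11 did not pass, with a median log2 fold change of -1.11. The 2 exceptions were GATA factors. Gata5 read 14969, 14033, 15923 and 14848 in lung and 581, 558, 898 and 1531 in intestine (4.19, SE 0.23, adjusted p = 1.05e-09), and Gata6 had a log2 fold change of 1.53 (adjusted p = 1.73e-06); both are also expressed in mesoderm and heart. Gata4 gave a value near 0 (-0.03) and did not pass. The zinc finger gene Klf5 was higher in intestine at -2.64 (adjusted p = 6.23e-05).

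Genes whose products serve the differentiated intestinal epithelium were also higher in intestine where they passed, with 1 exception. The microvillar gene Vil1 read 487, 2194, 754 and 1466 in intestine and 51.4, 27.1, 17.4 and 11 in lung (-5.45, adjusted p = 1.39e-06). The intestinal cadherin gene Cdh17 averaged 1090.4 ± 544 in intestine and 124 ± 43.3 in lung (SD, n = 4 each; -3.06). The fatty-acid binding protein genes Fabp1 and Fabp2 had no reads in lung and averaged 93.8 ± 35 and 176 ± 96.2 in intestine, and the trefoil gene Tff3 averaged 78.4 ± 63.5 against 0. Of 28 differentiation genes tested of 30 listed, 13 were higher in intestine, 1 was higher in lung and 14 did not pass, with a median of -2.12 (-0.75 with the 5 genes at 0 in 1 organ set to their bound). The number higher in intestine was 8 without intestine 2 and 7 with a filter of 1 CPM in 4 libraries. The 1 higher in lung was Lgr5, a Wnt receptor gene known as an intestinal stem cell marker in the adult, at 754, 624, 586 and 778 in lung and 129, 188, 251 and 509 in intestine (adjusted p = 0.00519). Some genes of the brush border of later life were at or near 0 in both organs, with Sis at 0 in all 8 libraries and Apoa4 at 3.73 normalized counts on average in intestine and 0 in lung.

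The intestine libraries varied among themselves in these genes. The general epithelial genes, summed over the 30 members, came to 68757, 122360, 83826 and 145117 normalized counts in intestine libraries 1 to 4 and to 102097, 95708, 74026 and 120040 in lung libraries 1 to 4. Intestine library 4 was highest in this sum and in Cdx2, and intestine library 1 was lowest in both. The whole-organ values cannot tell fewer epithelial cells from less RNA per cell.

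General epithelial genes gave values around 0. Of 30 tested, 4 were higher in lung, 4 were higher in intestine and 22 did not pass, around a median of 0.10. The number higher in lung was 2 without lung 1, 2 or 4 or intestine 1 or 3. Epcam, the pan-epithelial adhesion gene, averaged 11038 ± 2359.7 in lung and 11513 ± 4294 in intestine, and E-cadherin (Cdh1) averaged 6093 ± 3089 and 6213 ± 3906 (SD, n = 4 each). The simple-epithelium keratin genes Krt8 (-1.02), Krt19 (-0.98) and Krt18 (-0.67) and the transcription factor gene Elf3 (-1.68) were higher in intestine. Marveld3 (1.28), Cldn3 (1.15), the endodermal pioneer factor gene Foxa2 (1.06) and the splicing regulator gene Esrp2 (0.68) were higher in lung. Among 12 proximal airway and oesophagus genes, Sox2, Trp63 and Krt15 were higher in intestine (-1.49, -4.34 and -1.38) and the water channel genes Aqp5 and Aqp4 were higher in lung (3.81 and 2.80).

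The mesenchyme differed as well. Tbx4, which marks the lung bud mesoderm, read 26839, 24327, 23922 and 26274 in lung and 36.1, 36.4, 47.6 and 123 in intestine, a log2 fold change of 8.88 (SE 0.28, adjusted p = 5.15e-12). Tbx5, its partner in lung bud outgrowth, read 27184, 23508, 25285 and 29576 in lung and 321, 48.9, 187 and 34.4 in intestine (8.02, adjusted p = 3.14e-09). The related Tbx2 (2.36) and Tbx3 (0.76) were also higher in lung. Wnt2, the mesenchymal ligand needed for lung specification, read 13318, 15603, 16037 and 11524 in lung and 32.3, 51.7, 77.2 and 0 in intestine (9.51, adjusted p = 8.22e-07). Lef1 (4.04), Vegfd (3.29) and Bmp5 (0.98) followed, whereas Fgf10, the ligand that drives lung branching, averaged 3512 ± 562 in lung and 3132 ± 880 in intestine (SD, n = 4 each) and did not pass (0.20).

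Of 22 lung mesenchyme genes, 10 were higher in lung, 7 were higher in intestine and 5 did not pass (median 0.48). The members higher in intestine were Wnt5a (-2.80), Adamts8 (-1.81), Tcf21 (-1.52), Pdgfra (-1.32), the lncRNA gene Fendrr (-1.04), Nr2f1 (-0.70) and Foxf1 (-0.60). Fendrr and Foxf1 lie beside each other in the genome, and Foxf1, a hedgehog target of splanchnic mesoderm, averaged 21707 ± 2490.1 in lung and 33204 ± 6759 in intestine (SD, n = 4 each).

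Gut mesenchyme genes differed in the other direction. Hand1 read 9782, 11629, 7085 and 9497 in intestine and 0, 0, 21.2 and 0 in lung (-12.07, SE 0.78, adjusted p = 8.29e-09). Nkx2-3, a homeobox gene of the midgut and spleen mesoderm, read 6799.7, 9790.3, 5000.1 and 7454 in intestine and 0, 0, 14.5 and 12 in lung (-10.87, adjusted p = 2.33e-08). Barx1, known for patterning the stomach wall, read 37802, 21960.3, 29404 and 32583 in intestine against 118, 214, 442 and 246 in lung (-7.02, adjusted p = 2.67e-11). Nkx3-2 (-9.82), Six2 (-6.57), Hand2 (-6.03), Nkx2-5 (-5.20), Sfrp5 (-5.20) and Isl1 (-2.75) were higher in intestine as well. Nkx2-5, Six2 and Barx1 are known from the stomach and pyloric region, and Nkx6-3, a gene of the gastric antrum, was at 0 in lung and at 247, 254, 697 and 1822 in the 4 libraries labelled small intestine. Of 25 tested members, 13 were higher in intestine, 4 were higher in lung (among them Sfrp2, Foxl1 and Hoxd13) and 8 did not pass, with a median of -0.90. Without lung 1 or 4 or intestine 3, 2 were higher in lung, and without intestine 1 the median was -1.38.

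**Figure D3:**
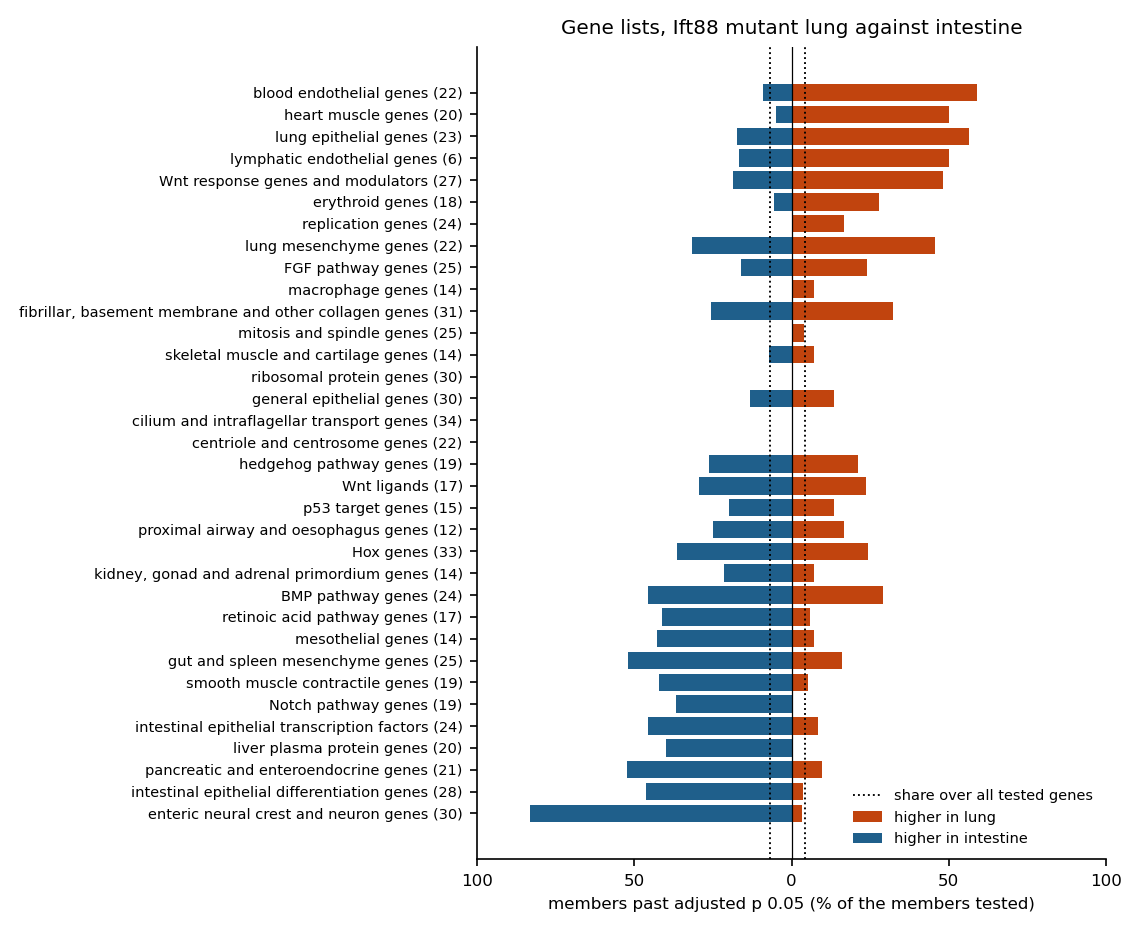
Share of the tested members of each gene list that passed an adjusted p of 0.05, higher in lung (right) or in intestine (left), with the number tested in parentheses; dotted lines are the shares over all tested genes, 4.15% and 6.97%. Enteric neural genes extend farthest to the intestine side, and blood endothelial and lung epithelial genes farthest to the lung side, while cilium, centriole and ribosomal protein genes have no bar.

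Hox genes, the positional code of the trunk, separated by cluster and by paralog number. Hoxa5 and Hoxb5, which pattern the lung mesenchyme, were higher in lung, with Hoxb5 at 14035, 12987, 15763 and 16067 in lung and 5563, 4744, 4269 and 6113 in intestine (1.52, adjusted p = 6.32e-08) and Hoxa5 at 0.91 (adjusted p = 5.26e-07). Hoxb6 (0.66) and Hoxb4 (0.41) were also higher in lung. Among the 9 tested genes of paralog groups 7 to 9, 7 were higher in intestine and 1 in lung, with a median log2 fold change of -3.24. The one higher in lung, Hoxd9, read 82, 30.4, 34.7 and 56 in lung and 0, 0, 15.3 and 0 in intestine (4.58, adjusted p = 0.0205). Hoxb8 averaged 3009 ± 223 in lung and 6308 ± 412 in intestine (SD, n = 4 each), and Hoxc8 had a log2 fold change of -6.18. The Hoxc and Hoxd clusters leaned to the intestine already at lower numbers, with Hoxc6 at 18.8, 71, 90.7 and 26 in lung and 878, 2488, 1535 and 1642 in intestine (-5.14), Hoxd4 at -6.00 and Hoxd3 at -5.06. In paralog groups 10 to 13, no group mean exceeded 58.7 normalized counts, and 6 of 12 genes were tested. Of these, Hoxd13 averaged 58.7 in lung and 2.33 in intestine, and Hoxa13 averaged 27.8 and 0. Hoxd13 and Hoxa13, genes of the hindgut, thus had few or no reads in the intestine libraries. Over all 33 tested Hox genes, 8 were higher in lung, 12 were higher in intestine and 13 did not pass (median -0.13). Of those higher in lung, Hoxd9, Hoxd13 and Hoxa13 averaged below the lung floor of 59.3 normalized counts. With a filter of 1 CPM in 4 libraries, or the spread over all 24 libraries, 5 were higher in lung. By edgeR with TMM scaling, 6 were.

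**Figure D4:**
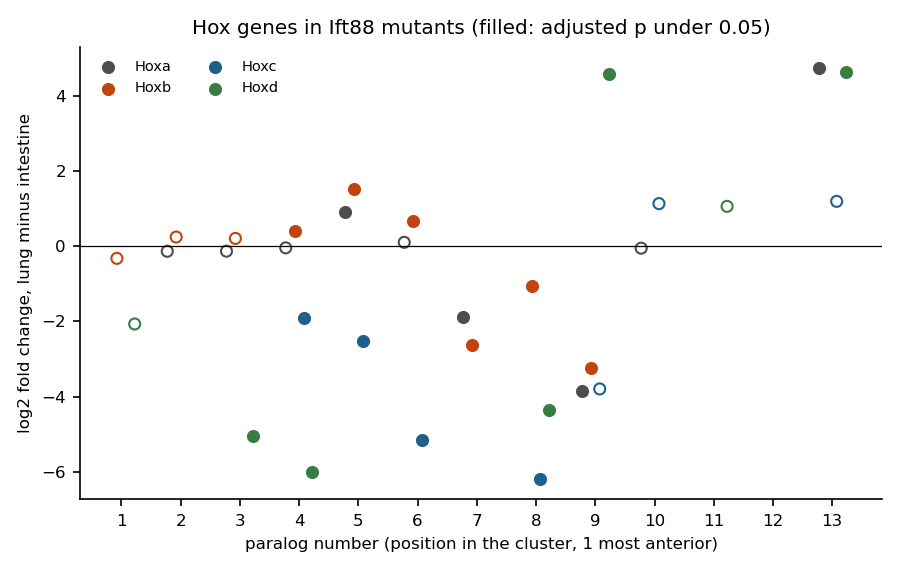
Log2 fold change, lung minus intestine, of tested Hox genes (vertical) by paralog number (horizontal) and cluster (colour); filled points passed an adjusted p of 0.05. Points of the Hoxa and Hoxb clusters lie near or above 0 up to number 6 and below it from 7 to 9, and the 3 points above 4 are genes with group means of at most 58.7 normalized counts. Values of the 4 genes with no reads in 1 organ depend on the pseudocount.

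Signalling genes were compared by role, starting with hedgehog, the pathway that needs the cilium. The ligand gene Shh, which marks the recombined epithelium, averaged 1283 ± 289 in lung and 1648 ± 746 in intestine (SD, n = 4 each) and did not pass (-0.27). A second ligand gene, Ihh, read 821, 2063, 1329.6 and 5644 in intestine and 151, 69.4, 47.3 and 63 in lung (-4.64, adjusted p = 2.09e-06). The direct target and receptor gene Ptch1 averaged 28892 ± 2304 in lung and 34570.3 ± 8462 in intestine, and the target and effector gene Gli1 averaged 19558 ± 1994 and 18142 ± 3052 (SD, n = 4 each); neither passed (-0.23 and 0.12). Among the receptors and coreceptors, Boc (1.26) was higher in lung, and Cdon (-1.12) and Gas1 (-0.95) were higher in intestine. The secreted inhibitor gene Hhip was higher in lung at 0.65. Of 19 tested genes, 4 were higher in lung, 5 were higher in intestine and 10 did not pass (median 0.08). Without lung 4 or intestine 1 or 3, 2 were higher in lung.

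Wnt ligands divided between the organs. Beside Wnt2 and Wnt7b, Wnt6 (1.98) and Wnt11 (0.79) were higher in lung. Wnt5a, the ligand of gut elongation, read 9599, 10203, 11899 and 15022 in intestine and 1639, 1408, 1518 and 2095 in lung (-2.80, adjusted p = 6.90e-10), and Wnt16, Wnt4, Wnt5b and Wnt9a were higher in intestine as well (-3.88, -1.41, -1.11 and -0.79). That gave 4 higher in lung, 5 higher in intestine and 8 not past the test among 17 tested of 19 (median 0.40, or 0 with the 2 genes at 0 in 1 organ set to their bound). The median was 0.23 without lung 2, 0.26 without lung 4 and 0.22 without intestine 4, and 3 were higher in intestine without intestine 1 or 3.

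Canonical Wnt signalling is read from its feedback and response genes. Axin2, the standard feedback target, read 6775, 6001, 5949.8 and 7629 in lung and 3393, 3129, 2746 and 3232 in intestine (1.07, SE 0.11, adjusted p = 2.22e-06). Lef1 (4.04), Sp5 (1.75), Lgr6 (1.60), Tcf7 (1.59), Rnf43 (1.17), Nkd2 (0.82), Nkd1 (0.81) and Znrf3 (0.58) had the same direction. Of the R-spondin genes, whose products amplify the signal, Rspo2 read 6571, 7336, 9038 and 5861 in lung and 253, 286, 177 and 252 in intestine (4.89, adjusted p = 1.35e-11). Rspo4 was higher in lung (4.12), and Rspo3 was higher in intestine (-2.13), as was the R-spondin receptor gene Lgr4 (-2.20). The secreted inhibitor genes Sfrp1 (-1.94), Sfrp5 (-5.20) and Dkk2 (mean 3743 against 472 normalized counts) were higher in intestine, and Sfrp2 (1.92) was higher in lung. Over 27 genes, 13 were higher in lung, 5 were higher in intestine and 9 did not pass (median 0.81).

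Among FGF ligand genes, the epithelial and mesothelial Fgf9 averaged 1629.8 ± 660.3 in lung and 1637 ± 443 in intestine (SD, n = 4 each) and did not pass, while Fgf18 (1.24) and Fgf1 (1.41) were higher in lung. The response genes Etv5 (2.90), Etv4 (0.89) and Dusp6 (0.45) were higher in lung, whereas the response genes Spry1 (-0.81), Etv1 (-0.68) and Spry2 (-0.40) were higher in intestine. Of 25 genes, 6 were higher in lung, 4 in intestine and 15 did not pass (median -0.06, or 0 with the 2 genes at 0 in 1 organ set to their bound). Without lung 1, 3 were higher in lung and 2 in intestine, and 2 were higher in intestine without lung 2 or intestine 2 or 4.

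BMP ligand genes split, with Bmp2 (1.91) and Bmp5 (0.98) higher in lung and Gdf6 (-2.99), Bmp6 (-1.36) and Bmp7 (-0.50) higher in intestine. Bmp4 averaged 4932 ± 387 in lung and 5484 ± 732 in intestine (SD, n = 4 each) and did not pass. Several genes of secreted BMP antagonists were higher in intestine: Chrdl2 (-4.75), Fst (-3.66), Grem1 (-2.61) and Chrdl1 (-2.45), with Chrd (0.59) higher in lung and Nog (-0.14) not past the test. The modulator gene Bmper (3.05) and the pseudoreceptor gene Bambi (1.92) were higher in lung. In all, 7 of 24 were higher in lung, 11 were higher in intestine and 6 did not pass (median -0.30).

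Of 17 retinoic acid genes, 7 were higher in intestine and 1 was higher in lung (median -0.78). The synthesis gene Aldh1a1 read 3367, 8122, 4664 and 5093 in intestine and 562, 726, 569 and 764 in lung (-2.96, adjusted p = 2.07e-08), and the major embryonic synthesis gene Aldh1a2 differed by -0.78. The binding protein gene Crabp1 (-2.86) and the degrading enzyme gene Cyp26a1 (-5.37) were higher in intestine, and the receptor gene Rarg (0.58) was higher in lung. Of 19 Notch genes, 7 were higher in intestine and none in lung; the ligand genes Dll3 (-3.58), Dll1 (-3.20) and Jag1 (-1.28) led, and the receptor genes Notch1 to Notch4 lay between -0.11 and 0.24 without passing. The number higher in intestine was 4 without intestine 2. Dll1 and Dll3 are also expressed by neural precursors.

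Enteric neural crest and neuron genes were the list with the largest share on one side. Of 30 tested, 25 were higher in intestine, 1 was higher in lung and 4 did not pass, with a median log2 fold change of -3.11. Ret, the receptor that guides crest cells along the gut, read 10778, 11047, 7333 and 16156 in intestine and 734, 366, 453 and 1056 in lung (-4.18, adjusted p = 8.37e-09). Its ligand gene Gdnf, made by the gut mesenchyme, was the member that differed most (-5.63), whereas Gfra2 was the member higher in lung (0.88). Sox10, of crest progenitors and glia, read 7153, 7190.1, 5166 and 8089 in intestine and 708, 491, 1126 and 788 in lung (-3.19, adjusted p = 5.82e-09), and the neuronal tubulin gene Tubb3 had a log2 fold change of -4.19. The neurofilament genes Prph, Nefl and Nefm (-4.72, -3.36 and -2.74) and the catecholamine enzyme genes Dbh (-4.01) and Th (-1.79) were all higher in intestine. The summed list ranged from 41635 to 55943 normalized counts over the lung libraries and from 138741 to 187037 over the intestine libraries, without overlap.

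Smooth muscle contractile genes were higher in intestine for 8 of 19, with 1 higher in lung (median -0.65, or -0.29 without lung 3). Acta2, the first contractile actin of visceral muscle, read 67297, 126084, 85141 and 94579 in intestine and 38440.4, 39868, 31619 and 38578 in lung (-1.30, SE 0.15, adjusted p = 7.61e-06). Myocd, the coactivator that drives the programme, read 6162, 10212, 6770.3 and 14279 in intestine and 2113, 1502, 1132 and 4094 in lung (-2.17, adjusted p = 8.58e-05). Synpo2 (-2.85), Actg2 (-1.46), Cnn1 (-1.35), Kcnmb1 (-1.22), Myl9 (-1.05) and Tpm2 (-0.41) followed. Desmin (Des) was the one higher in lung (0.86), and Myh11 (-0.65) and Mylk (-0.12) did not pass. With the spread estimated over all 24 libraries, Acta2, Actg2, Cnn1, Kcnmb1, Myl9, Myocd and Tpm2 missed the threshold, with an adjusted p of 0.421 for Acta2 and 0.0586 for Myocd. Tpm2 and Kcnmb1 also missed it without lung 3 for Tpm2 (adjusted p = 0.0862), without lung 2 for Kcnmb1 (0.0519) and without intestine 2 or 4 for both (0.107 and 0.057 for Tpm2, 0.0829 and 0.0684 for Kcnmb1).

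Blood endothelial genes were higher in lung for 13 of 22, with 2 higher in intestine and 7 not past the test (median 0.61). Cldn5, of endothelial tight junctions, read 4219, 2785, 3722 and 5199 in lung and 1233, 1124, 868 and 1602 in intestine (1.72, adjusted p = 5.61e-06), and the angiopoietin receptor gene Tek had a log2 fold change of 1.36. The size varied within the list, since the defining genes Pecam1 (0.36) and Cdh5 (0.38) did not pass and Kdr was at 0.52. The capillary genes Car4 (-2.02) and Gpihbp1 (-1.81) were the 2 higher in intestine. Of 6 lymphatic endothelial genes, Mmrn1 (3.26), Lyve1 (2.78) and Flt4 (0.66) were higher in lung and Pdpn (-0.45) was higher in intestine, while Prox1, the lineage-defining factor, averaged 737 ± 189 and 717 ± 73.9 (SD, n = 4 each). Mmrn1 read 8989, 9014, 7866 and 8922 in lung and 670.1, 1069, 1104 and 847 in intestine. Of 14 macrophage genes only Mrc1 passed (0.78, higher in lung), and Csf1r did not (0.24).

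Erythroid genes leaned to lung. The embryonic globin genes Hba-x (0.64) and Hbb-y (0.54) and the near-identical Hba-a1 and Hba-a2 (0.61 and 0.63), whose reads may be shared, passed, as did Tal1 (1.08); Sptb was higher in intestine (-1.17). That made 5 and 1 of 18. The number higher in lung was 2 without lung 2 and 8 without lung 4. None of the globin calls held with the spread over all 24 libraries, where the adjusted p was 0.405 for Hba-x and 0.612 for Hbb-y. The list sum ranged from 268421 to 430118 normalized counts in lung and from 188895 to 264934 in intestine.

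Genes that mark other organs were read to see what the dissected tissue held. Of 20 heart muscle genes, 10 were higher in lung and 1 in intestine (median 1.23). The atrial light chain gene Myl7 read 2110.5, 2198, 4320 and 2014 in lung and 189.8, 124, 344 and 47.5 in intestine (4.16, adjusted p = 2.56e-06), and Myh6 averaged 1135 ± 754 and 101 ± 33.7 (SD, n = 4 each). Nppa, a defining atrial gene, had no reads in lung, and Myl2, of the ventricle, averaged 16.7. The list sum was highest in lung library 3, at 21056 normalized counts against 11367 to 12807 in the other 3 lung libraries and 4591 to 6235 in intestine. Cardiac muscle is known to line the pulmonary veins of the mouse. What part adjoining heart tissue had in these values was not tested.

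Liver plasma protein genes were higher in intestine for 8 of 20 and in lung for none (median -2.39, or -1.28 without lung 1). Apob read 2070.1, 8373, 5343 and 4264 in intestine and 1, 107, 26.1 and 52 in lung (-7.56, adjusted p = 5.41e-06), and Ambp had a log2 fold change of -5.73. Apob, Apoa1 and Ttr are also made by endoderm outside the liver. The defining hepatocyte genes Alb (413, 912, 1852 and 166 in intestine and 0, 838, 136 and 149 in lung) and Afp (-1.13) did not pass. Lung library 2 held the highest Alb value of that organ and the highest list sum among lung libraries, at 4173 normalized counts against 1022 to 1662. The list sum was 11916 to 25619 over the intestine libraries.

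Pancreatic and enteroendocrine genes were higher in intestine for 11 of 21 tested of 28 and in lung for 2 (median -2.65, or -1.34 with the 6 genes at 0 in 1 organ set to their bound). Cck, the gene of the gut hormone cholecystokinin, read 1891, 1374, 1672 and 1199.7 in intestine and 0, 40.6, 0 and 14 in lung (-8.24, adjusted p = 1.12e-05). The endocrine regulators Insm1 (-4.13) and Mnx1 (-8.48) and the acinar enzyme gene Cpa1 (-3.84) were higher in intestine. Ptf1a, the defining pancreatic factor, averaged 7.67 in intestine and 0 in lung, and the insulin genes Ins1 and Ins2 were at 0 in all 8 Ift88 mutant libraries. Rbpjl, known as a partner of Ptf1a in the pancreas, was higher in lung instead, at 1090.3, 987, 572 and 847 against 237, 92, 73.6 and 100.5 (adjusted p = 1.65e-05). The pancreatic and enteroendocrine list summed to 18929.7, 12562, 16543 and 16273 normalized counts in intestine and 4697, 4594, 6383 and 4649 in lung. The parts of pancreas and liver tissue in these libraries were not tested.

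Mesothelial genes did not move as one. Upk3b averaged 16413 ± 5617 in lung and 15438 ± 4817 in intestine, and Wt1 averaged 6369.9 ± 2054 and 7906 ± 2837 (SD, n = 4 each), neither past the test. Tbx18 was higher in lung (7.16, adjusted p = 7.03e-06), and Msln (-5.32), Bnc1 (-1.43) and Muc16 (-1.36) were higher in intestine, for 1 and 6 of 14. Among 14 kidney, gonad and adrenal genes, Lhx9 (-7.04), Emx2 and Gata3 were higher in intestine and Cdh16 (4.79) was higher in lung, while the defining genes Pax2, Pax8 and Nr5a1 averaged 18.5, 14.4 and 31.8 normalized counts in lung and 26.6, 17.6 and 7.35 in intestine. Of 14 skeletal muscle and cartilage genes, Acan was higher in intestine and Snai2 in lung (-5.39 and 1.31); by edgeR with TMM scaling Acan did not pass (adjusted p = 0.0614). The muscle-defining Myod1 and Myog averaged 17.4 and 37.8 normalized counts in lung and 33.7 and 13.3 in intestine.

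Genes of general cell machinery gave few calls. None of the 34 cilium and intraflagellar transport genes passed, with log2 fold changes from -0.30 to 0.28 and a median of 0.01. None of the 22 centriole genes (-0.17 to 0.24) or the 30 ribosomal protein genes (-0.01 to 0.35) passed either. Of 25 mitosis genes, Mad2l1 alone passed (0.37, higher in lung), and the list's median was 0.15. Of 24 replication genes, Ccne1 (0.52), Cdc6 (0.42), Uhrf1 (0.40) and Cdc45 (0.37) were higher in lung and none in intestine (median 0.16), and 2 were without lung 1 or intestine 1. Over all tested genes, 4.15% were higher in lung. The replication list summed to 423144 to 442085 normalized counts over the lung libraries and 362815 to 389156 over the intestine libraries. The mitosis list summed to 553040 to 583959 and 505211 to 533720 in the same order. Among 15 p53 target genes the cell-cycle inhibitor gene Cdkn1a read 662, 1735, 1143 and 2159 in intestine and 555, 225, 352 and 347 in lung (-1.88, adjusted p = 5.95e-04), and Zmat3 (-0.75) and Trp53inp1 (-0.53) were also higher in intestine. Phlda3 (0.63) and Aen (0.38) were higher in lung, and Trp53 itself did not pass (0.24).

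Collagen genes differed member by member, with 10 of 31 higher in lung and 8 higher in intestine around a median of -0.02. Col13a1 (3.14) and the basement membrane genes Col4a4 (2.57), Col4a3 (1.53), Col4a6 (1.02) and Col4a5 (0.96) were higher in lung. Col8a1 (-4.17) and Col12a1 (-2.23) were higher in intestine. The ubiquitous Col4a1 and Col4a2 had log2 fold changes of -0.08 and -0.02 and did not pass.

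Beyond the lists, the 20 largest differences in each direction were read among genes with a mean of 500 or more in the higher organ and no overlap between the 4 and 4 libraries. 2323 genes met those conditions, 922 higher in lung and 1401 higher in intestine. On the lung side, the carboxylesterase gene Ces1f read 722, 930.4, 1159 and 657 in lung and 0 in every intestine library, at least 16.2-fold higher; its family members are similar in sequence, so reads may be shared. Sp8, a zinc finger gene known from limb and brain, was also at 0 in intestine and at 393, 452, 827 and 418 in lung, at least 9.79-fold higher (adjusted p = 1.64e-06), and so was the long non-coding gene AC114575.1, on chromosome 12 like Nkx2-1, at 603 ± 49.6 (SD, n = 4). The calcium-binding protein gene Calb2 (8.10), the adrenergic receptor gene Adra1b (7.87), the B-cell activating cytokine gene Tnfsf13b (7.18) and the striated muscle gene Smpx (6.36) were also among the lung-side genes. Tnfsf13b read 2304, 2646, 2455 and 2285 in lung and 0, 82.4, 61 and 14 in intestine.

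On the intestine side, genes of bile acid sensing and of glucuronidation stood beside the transcription factors. The glucuronosyltransferase genes Ugt2b34 and Ugt2b35, close relatives whose reads may be shared, averaged 4049 ± 1323 and 673 ± 226 in intestine and 3.7 and 0 in lung (SD, n = 4). Gpbar1, the membrane bile acid receptor gene, read 1034, 1669.9, 1079 and 1124 in intestine and 0, 0, 0 and 20 in lung (-9.14, adjusted p = 2.02e-06). Gucy2c, the receptor gene for guanylin in the gut epithelium, averaged 1093 ± 734 in intestine and 6.55 ± 13.1 in lung (SD, n = 4 each; -8.57). The ligand gene Guca2a had almost no reads in either organ. Nepn, known from foregut and midgut endoderm, read 3089.5, 2697, 3883 and 5428 in intestine and 27.7, 14.4, 2.9 and 0 in lung (-9.14, adjusted p = 1.71e-07). Lypd8, which encodes a colonic defence protein in the adult, was at 0 in lung and at 500.1 ± 58.1 in intestine. The inflammasome gene Nlrp6 (-8.35), the threonine dehydrogenase gene Tdh (-8.88) and the zinc finger gene St18 completed the group. St18 read 524, 436, 664 and 549 in intestine and 0, 0, 0 and 3 in lung (adjusted p = 2.27e-06).

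The same organ contrast in the 8 control libraries shares no library with the one above. There, 1169 of 30538 genes tested passed (3.83%). Of these, 1167 were also tested in Ift88 mutants, where 976 (83.6% of them) passed, 974 of these in the same direction. The shared genes were 28.5% of the 3422 Ift88 mutant calls tested in both. The 2 with opposite directions were Cobl and Cacna2d2, which are named because of that result. In Cenpj mutants, 2007 of 30743 passed (6.53%), and 1400 were shared, 41% of the Ift88 mutant calls and 69.9% of the Cenpj mutant calls tested in both. Nkx2-1 read 11821, 9283, 7963 and 6762 in control lung and 5379.9, 3487, 6769 and 2977 in Cenpj mutant lung, and 0, 0, 14.2 and 0 in control intestine and 0 in all 4 Cenpj mutant intestine libraries. Cdx2 read 1745, 709, 1315 and 1911 in control intestine and 1311, 908, 629 and 679 in Cenpj mutant intestine, and at most 15 in any lung library.

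Whether the organ difference itself varied with genotype was tested by an interaction term over the 16 control and Ift88 mutant libraries. Of 31919 genes, 26 (0.0815%) passed, 20 of them with a value shifted towards intestine in Ift88 mutants and 6 shifted towards lung. At an unadjusted p under 0.05 there were 2230. The number depended on the tool and the libraries, from 3 without the 2 control libraries rich in ribosomal RNA, lung 3 and intestine 2, to 226 without control intestine 4 and 233 by DESeq2. Of the 15 that are named here, Cyp1b1 and Mmrn1 passed in every alternative run. Control lung 1 and control intestine 1 had Ddx3y at 7740.3 and 8062.6 normalized counts and little Xist, as male tissue does, while all 8 Ift88 mutant libraries had high Xist and no Ddx3y. The parts of these differences in the result were not tested.

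Several genes of neural crest cells and glia were among those that passed. Gpr17, a receptor gene of the oligodendrocyte lineage that ranked first, read 302, 146, 309 and 331 in Ift88 mutant lung and 1685, 1406, 1438 and 1653 in Ift88 mutant intestine. In controls it read 1444, 831, 3266 and 1423 in lung and 812, 546, 731 and 1263 in intestine, and the organ difference was shifted by -3.51 on the log2 scale (SE 0.46, adjusted p = 0.00621). Foxd3, which maintains crest progenitors, read 398, 560.1, 1249 and 382 in control lung and 981, 651, 1137 and 1439 in control intestine, against 86.9, 58.4, 137 and 149 and 1386, 1309.6, 1153 and 1564 in Ift88 mutants (-2.90, adjusted p = 0.0269). Sox10 (-2.72, adjusted p = 0.0351), Sox8 (-2.32) and the axonal adhesion gene L1cam (-2.56) had the same direction. Without Ift88 mutant lung 1, the adjusted p was 0.0832 for Foxd3 and 0.0957 for Sox10, and without control intestine 4 it was 0.00542 for both. Leaving out each of the 16 libraries in turn, the call was lost for Foxd3 in 8 cases, for Sox10 and Sox8 in 11 each and for L1cam in 13. Without the 2 ribosomal-rich controls, all 4 missed the threshold (adjusted p = 0.0539, 0.0501, 0.0501 and 0.187 for Foxd3, Sox10, Sox8 and L1cam). All 4 Ift88 mutant lung libraries lay below all 4 control lung libraries for Sox10, Foxd3 and Gpr17, and control lung library 3, one of the ribosomal-rich pair, was the highest control for each. These genes had passed the interaction test on the same values, so the separation is no independent support. Of the 30 enteric neural genes, 26 had a value below 0 (median -1.33) and 3 passed. Such a lean was not particular to this list. Values below 0 were held by 18 of 19 smooth muscle, 16 of 18 erythroid, 15 of 17 retinoic acid and 12 of 14 mesothelial genes. The replication and mitosis lists leaned the other way, with 0 of 24 and 2 of 25 below 0. The share below 0 over all tested genes was not computed. The summed enteric neural list was 47139 to 81374 normalized counts in control lung and 109995 to 176133 in control intestine.

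The other genes with the smallest p were of mixed kinds. Mmrn1, of lymphatic endothelium and platelets, was 5237 ± 1046 in control lung and 1869.7 ± 394 in control intestine, and its organ difference was larger in Ift88 mutants by 1.77 (SE 0.24, adjusted p = 0.00621). The amino acid transporter gene Slc38a5 averaged 5955 ± 411 in Ift88 mutant lung and 494 ± 79.5 in Ift88 mutant intestine, against 2945 ± 280.3 and 3773 ± 2520 in controls (SD, n = 4 each; 3.54, adjusted p = 0.0269). The cytochrome gene Cyp1b1 (-2.27) and the metalloproteinase inhibitor gene Timp3 (-1.19) were higher in lung in controls (2.03 and 1.04) and gave organ differences of -0.23 and -0.15 in Ift88 mutants. The matrix gene Efemp1 (-2.07), the ephrin receptor gene Ephb1 (-1.89), the non-coding gene 2610203C20Rik (-1.78) and the RNA-editing gene Adarb1 (1.10) complete the first 10.

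Of the 19 smooth muscle genes, 7 were higher in lung and 2 in intestine in Cenpj mutants (median 0.61). Acta2, Cnn1, Myl9 and Tpm2, named because of that result, passed as higher in intestine in Ift88 mutants and as higher in lung in Cenpj mutants, with Acta2 at 19863, 26628, 10991 and 21545 in Cenpj mutant lung and 19243, 1674, 2128 and 5437 in Cenpj mutant intestine (2.10, adjusted p = 0.022). A test of the difference between these mutants, added after that was seen, passed for 97 of 32109 genes (0.302%). The count was 277 without Cenpj mutant intestine 1 and 48 without Ift88 mutant intestine 2. The full set gave -3.40 for Acta2 (adjusted p = 0.0196), -3.27 for Cnn1 (adjusted p = 0.0196), -2.04 for Myl9 (adjusted p = 0.0083) and -1.19 for Tpm2 (adjusted p = 0.0114). Myl9 and Tpm2 passed whichever library was left out, whereas Acta2 and Cnn1 missed the threshold without Cenpj mutant lung 2, among others (adjusted p = 0.0612 and 0.0587). The genes were chosen for opposite calls in these same libraries, so these p-values and leave-outs are no independent support. In controls Acta2 read 15746, 6061, 3054 and 13301 in lung and 8591, 4325, 811 and 55733 in intestine, so the control organs overlapped, and the difference between Ift88 mutants and controls did not pass (-1.60, adjusted p = 0.811). Control intestine library 4 was the highest of the controls by a wide margin, and within each organ every Ift88 mutant library exceeded every control library in Acta2. Genotype differences within an organ were not tested here, and the share of all genes that separate in this way was not computed. Cenpj mutant libraries held 2519 to 4332 RPM of ribosomal RNA in intestine and 7408 to 12862 in lung, against 332 to 1287 in Ift88 mutants. Cenpj mutant intestine 1 also had Ddx3y at 1438 and Xist at 98518 normalized counts, while no Ift88 mutant library had Ddx3y. The parts of the ribosomal RNA and of Ddx3y-bearing tissue in the difference were not tested.

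**Figure D5:**
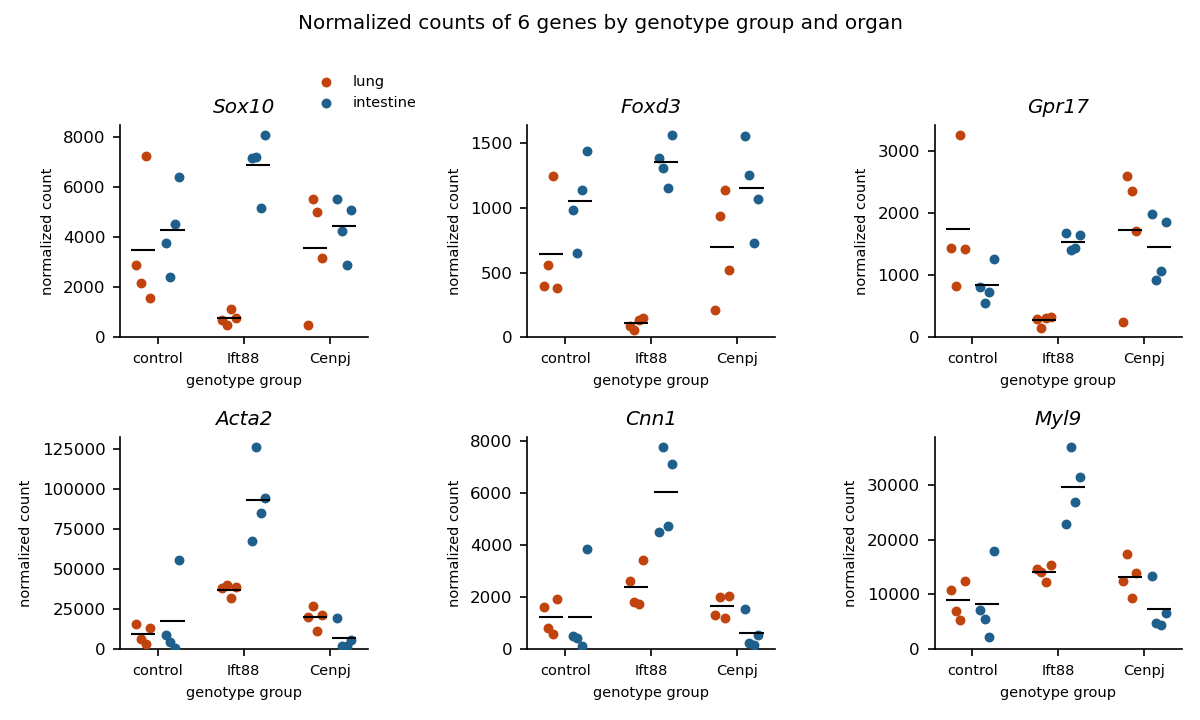
Normalized counts (vertical) of 6 genes in lung (red) and intestine (blue) of the control, Ift88 mutant and Cenpj mutant groups; points are libraries and black bars the mean of 4. Sox10, Foxd3 and Gpr17 were lower in every Ift88 mutant lung library than in any control lung library, and Acta2, Cnn1 and Myl9 were higher in every Ift88 mutant intestine library than in any other intestine library. The 6 genes were chosen from tests on these same values, so the separation is no independent support.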

How the data were processed

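Bulk RNA sequencing of 24 libraries, 4 for each of 3 genotypes and 2 organs at E11.5, was used as deposited. Alignment and scaling tools listed, without roles, in the submitters' processing notes are STAR (2.5.2b) and DESeq2 (1.16.1), and the genome is GRCm38, or mm10. The authors deposited normalized counts per gene, a signal scaled between libraries, and a table of fold ratios with p-values for each comparison. Whole reads were recovered from the low values for at least 99.8% of genes per library (tolerance 0.051), 96 to 121 M per library. With the lowest read numbers left out, low genes most often carried 11 to 38 reads. Reads were therefore taken to come in groups, and precision to be that of 2.57 to 11.0 M such groups or fewer. Genes averaging at least 1 normalized count in the fitted libraries were tested as log2(value + 1) with limma 3.58.1 in R 4.3.3. A fold change on this scale understates that of low genes. The adjusted p threshold was 0.05. Each organ contrast was fitted on its 8 libraries, and organ by genotype terms on 16. Alternatives used another pseudocount, filter, tool (edgeR 4.0.16, DESeq2 1.42.0, limma-voom) or set of libraries. Gene lists and members were chosen with earlier results of these data known, the named genes being list members, Ift88, Cenpj and the 20 largest differences each way with a mean of 500 or more in the higher organ and no overlap of libraries, leaving out predicted genes, and the 10 smallest interaction p-values. Some members are counted in their lists but not reported by name here. Bounds used a floor of 3 such groups per library, chosen after seeing the data, and 0 where the other organ lay below it. The fitting was tested on simulated data. Promoters came from RefSeq (GRCm38.p6).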

Additional observations from a re-analysis of the deposited data

Results flagged for a closer look

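In 63 of 535 sets of 4 libraries of 1 organ, over the genes named above, a single library stood apart from the other 3 by a gap above Dixon's 95% critical value for 4 samples. Chance gives about 1 in 20 sets where values are normally distributed. Sets with 3 libraries at or near 0 break that condition, so the 63 cannot be read as an excess. All values that follow are normalized counts of the library that stood apart. Ift88 mutant lung library 1 was above the other 3 for Gata3 at 274. Library 1 of lung was below the other 3 for Col12a1 at 2948 and Dkk2 at 319. In lung library 1, genes at or near 0 in the other 3 were read for Chrdl2 at 42.5, Nr5a1 at 115 and Tdh at 18.8. Ift88 mutant lung library 2 was above the other 3 for Ambp at 213. Library 2 of lung was below the other 3 for Etv1 at 2312 and Gpr17 at 146. In lung library 2, genes at or near 0 in the other 3 were read for Cdx1 at 0.8, Emx2 at 118, Gucy2c at 26.2, Hnf4a at 1.7, Hoxc8 at 59.2 and Myl2 at 66.8. Ift88 mutant lung library 3 was above the other 3 for 2610203C20Rik at 19243, Gata6 at 14156, Myl7 at 4320, Sfrp2 at 24114, Sp8 at 827 and Tbx18 at 1929.9. Library 3 of lung was below the other 3 for Adarb1 at 4107, Bmp7 at 2932, Mmrn1 at 7866 and Tpm2 at 8252. In lung library 3, genes at or near 0 in the other 3 were read for Hand1 at 21.2, Hoxd4 at 43.4 and Mnx1 at 13.5. Ift88 mutant lung library 4 was above the other 3 for Kcnmb1 at 205. In lung library 4, genes at or near 0 in the other 3 were read for Acan at 47, Gpbar1 at 20, Nkx3-2 at 16, Nlrp6 at 18, St18 at 3 and Ugt2b34 at 14. Ift88 mutant intestine library 1 was above the other 3 for Acan at 261, Ephb1 at 2381 and Rbpjl at 237. Library 1 of intestine was below the other 3 for Pecam1 at 6693. In intestine library 1, genes at or near 0 in the other 3 were read for Nr5a1 at 29.4. Ift88 mutant intestine library 2 was above the other 3 for Cyp1b1 at 2727 and Gpbar1 at 1669.9. Library 2 of intestine was below the other 3 for Elf5 at 19.2. In intestine library 2, genes at or near 0 in the other 3 were read for AC154734.2 at 8.6 and Ptf1a at 30.7. Ift88 mutant intestine library 3 was above the other 3 for 2610203C20Rik at 62479 and Trp53inp1 at 3504. In intestine library 3, genes at or near 0 in the other 3 were read for Adra1b at 21.5, Guca2a at 0.9, Hoxd9 at 15.3 and Sftpd at 11.7. Ift88 mutant intestine library 4 was above the other 3 for Bmp2 at 231, Cdh5 at 14097, Foxa2 at 2219.7, Gata4 at 11462 and Tbx4 at 123. Library 4 of intestine was below the other 3 for Hbb-y at 73637 and Myog at 0. In intestine library 4, genes at or near 0 in the other 3 were read for Apoa4 at 14.9, Hoxd13 at 9.3, Nppa at 27, Sftpa1 at 21.4 and Sftpc at 3.7.

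The organ difference, lung minus intestine on the log2 scale, differed between Ift88 mutants and controls by the interaction test for 15 of the genes named above. The 10 with the smallest interaction p and Cobl are among them by choice, so the count reflects that selection. Over all 31919 genes tested, 26 (0.0815%) passed. Of the 15, only Cyp1b1 and Mmrn1 passed in every alternative run. The shift was towards intestine for 2610203C20Rik (-1.78), Cobl (-1.19), Cyp1b1 (-2.27), Efemp1 (-2.07), Ephb1 (-1.89), Foxd3 (-2.90), Gpr17 (-3.51), L1cam (-2.56), Six2 (-3.34), Sox10 (-2.72), Sox8 (-2.32) and Timp3 (-1.19). It was towards lung for Adarb1 (1.10), Mmrn1 (1.77) and Slc38a5 (3.54).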

How the results depend on the processing

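Over 10 other settings, the number of genes past the threshold between Ift88 mutant organs ranged from 2718 (spread over all 24 libraries) to 3926 (DESeq2), and leaving out each library gave 2812 to 3336. Of 235 named genes that passed, 175 passed under every alternative that gave them an adjusted p. In controls the count was 1170 without the ribosomal-rich pair, 1770 by DESeq2 and 907 to 1184 when a library was left out, and in Cenpj mutants 1494 to 1981. The count of genes whose organ difference varied between Ift88 mutants and controls was 26, and became 14 with a pseudocount of 0.1, 40 with the replicate block, 4 without a filter, 14 with a filter of 1 CPM in 4 libraries, 4 with all 24 libraries, 233 by DESeq2 and 3 without the 2 ribosomal-rich controls. Leaving out each library gave 5 to 226. Against Cenpj mutants, a test chosen after seeing the data, 97 became 48 to 277 when a library was left out. Whether the replicate numbers pair the samples was not settled. The deviations of same-numbered libraries correlated weakly, at -0.00533 to 0.0401 in Ift88 mutants, -0.00949 to 0.0347 in controls and -0.0260 to 0.0613 in Cenpj mutants. The own number was highest for 1, 2 and 2 of 4. The 2 control libraries with Ddx3y at 7740.3 and 8062.6 both carried number 1. The replicate block gave 3924 genes for the Ift88 organs, 1559 for controls and 2041 for Cenpj mutants, against 3427, 1169 and 2007 without it. Calls of 1 or 2 genes in the airway, lymphatic, retinoic acid, mitosis, p53, kidney and skeletal lists also moved when 1 library was left out. Calls that rested on 1 library were Cdc45 (adjusted p = 0.0517 without lung 3), Elf3 (adjusted p = 0.0555 without intestine 2), Hba-a2 (adjusted p = 0.0768 without lung 2), Nkd2 (adjusted p = 0.0558 without lung 1) and Th (adjusted p = 0.0597 without intestine 1). Another 29 named calls missed the threshold without any of several libraries: Aen, Aqp5, Cdc6, Chrd, Chrdl2, Cldn3, Emx2, Esrp2, Fgf18, Fgf1, Foxl1, Foxp2, Hba-a1, Hbb-y, Hhip, Hoxd13, Hoxd9, Kcnmb1, Kdr, Pdpn, Rspo4, Sox2, Spry2, Tff3, Tpm2, Trp53inp1, Uhrf1, Wnt16 and Wnt9a, with adjusted p up to 0.18 (Kdr). Genes not past the threshold changed sign: edgeR with TMM gave Cdh1 -0.044, Myl2 1.47 and Notch4 -0.0079, edgeR with DESeq2 size factors gave Cdh1 -0.027, Col4a2 0.0026 and Myl2 1.48, DESeq2 gave Cdh1 -0.027, Col4a2 0.0027 and Myl2 1.49, and limma-voom gave Notch4 -0.011 and Prox1 -0.017. Leaving out each library in turn reversed the sign of these uncalled genes, whose log2 values ranged over Cdh1 -0.29 to 0.43, Col4a1 -0.30 to 0.11, Col4a2 -0.22 to 0.13, Efemp1 -0.12 to 0.23, Epcam -0.26 to 0.17, Fgf9 -0.26 to 0.17, Gata4 -0.21 to 0.24, Ift88 -0.11 to 0.052, Myl2 -1.84 to 0.33, Mylk -0.23 to 0.017, Myog -0.068 to 2.37, Nog -0.34 to 0.024, Notch1 -0.18 to 0.25, Notch4 -0.16 to 0.14, Pax8 -1.27 to 0.71, Prox1 -0.12 to 0.15 and Upk3b -0.16 to 0.28. The cause of these changes was not tested. A call lost in 1 of these settings is not shown to be absent.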
